A study of Homo sapiens with 2 samples.

Results

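The BCL2 family sets the threshold for apoptosis through the mitochondria. Its members were read here on a pair of arrays of GFP-SAS cells, 1 given an inhibitor of miR-361-3p and 1 given a non-target oligonucleotide. The genes examined were 10 regulators of 3 kinds: the survival members BCL2, BCL2L1 and MCL1, the effectors BAK1 and BAX, and the BH3-only members BCL2L11, BID, BAD, PMAIP1 and BBC3. All probe sets annotated to one of these symbols alone were taken, which gave 46 of the 45253 probe sets with a single gene symbol and 10 of 18239 genes. No member shared a probe set with another annotated gene. GFP-SAS is a form of SAS, an established human line from a squamous carcinoma of the tongue, that makes green fluorescent protein. An antisense strand of mixed LNA and DNA was given to both cultures at 25 nM over 24 h. It was directed at miR-361-3p in one and at no target in the other, and the study asked which genes are targets of this microRNA. Each group was 1 array, so there is no replicate error, no test was possible, and no p-value is given.

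Survival members bind and restrain the effectors, which otherwise assemble into pores in the outer mitochondrial membrane and release cytochrome c. BH3-only proteins are sensors of stress, growth factor loss or DNA damage that occupy the survival members or switch on the effectors directly. Much of this control acts on the proteins, through MCL1 breakdown, cleavage of BID and phosphorylation of BAD, and an RNA array does not read it. In bulk RNA, fewer cells with a transcript and less of it per cell cannot be told apart.

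The inhibited microRNA is printed first because it is the target of the oligonucleotide, with its seed, bases 2 to 8, in capitals. It is encoded on the minus strand at chrX:85903641-85903663 (RefSeq, GRCh38.p14).
hsa-miR-361-3p: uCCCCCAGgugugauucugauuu
Pairing of this seed with the transcripts of the members was not analysed here.

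Of the 10 members, 0 were at least 1.5-fold higher and 1, BID, was at least 1.5-fold lower on the anti-miR array. Over all 18239 genes computed the same way, 4.4% were past this threshold in the higher and 7.37% in the lower direction, so the members' counts lie near the background. PMAIP1, at 1.48-fold higher, stood just short of the threshold and was the member with the largest positive difference. The median over the members was 0.14 on the log2 scale (anti-miR minus control), against 0.10 over all genes. Of the members 8 had a positive and 2 a negative difference, where 67.8% of all genes had a positive one, and 6 of 10 lay above the median of all genes. Single probe sets of the members ran from -1.88 to 0.59, and 31 of 46 lay within 0.3 of zero. Of these 46, 1 was at least 1.5-fold higher and 2 were lower, against 5.04% and 9.87% of all single-symbol probe sets. Of all genes past the threshold 37.4% were on the higher side, and 25.1% with centring on the median or 21.5% with a lowess trend removed.

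**Figure D1:**
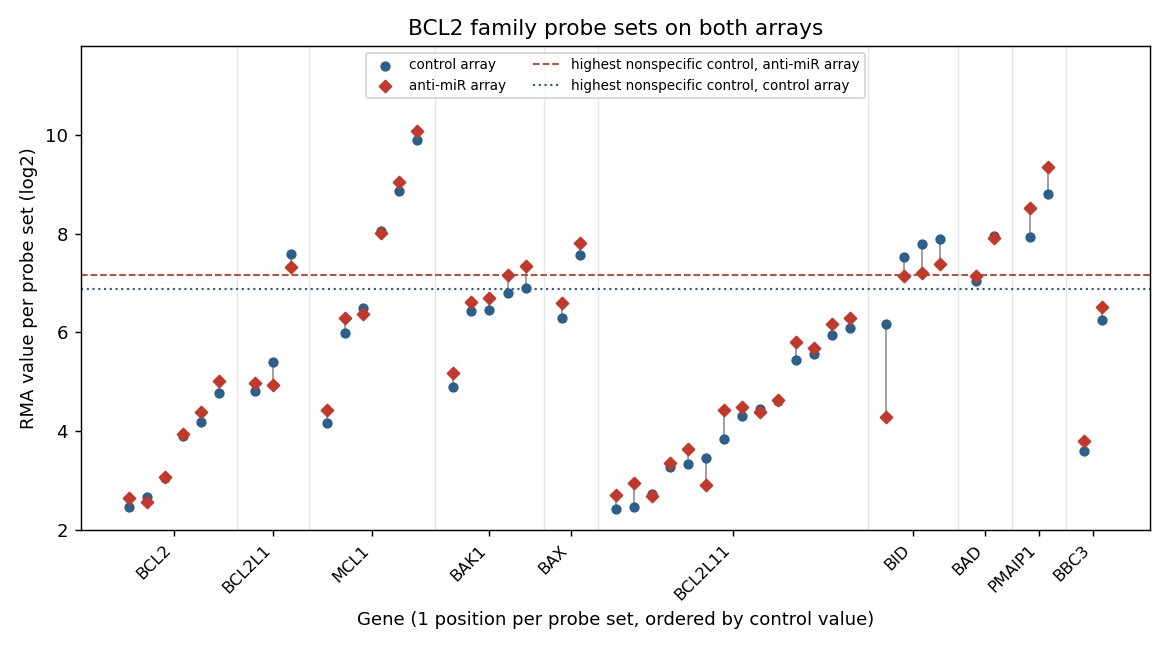
RMA value (log2) of each of the 46 member probe sets on the control array (blue circles) and the anti-miR array (red diamonds), grouped by gene, with the highest nonspecific control probe set of each array as a line. The longest connecting line belongs to 1 probe set of BID (4.28 against 6.16), while all BCL2 and BCL2L11 probe sets lie below both lines.

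The values are log2 expression from RMA, and no detection call came with them. The arrays carry 23 control probe sets for nonspecific binding, the highest of which reached 7.16 with the anti-miR and 6.87 with the control RNA. This range is used as a strict mark of background, since only 18.1% of all single-symbol probe sets lay above it on both arrays. Of the member probe sets 11 did so, and 32 lay above it on neither array. BCL2, BCL2L11 and BBC3 had no probe set above it on either array, so their RNA is not shown to be above background here. Among the 7 other members, which had at least 1 such probe set on both arrays, 0 were higher and 1 was lower, against 8.15% and 9.71% of the 4479 genes of this kind. The lower one is BID, whose gene value includes a probe set within the range on both arrays. Its 2 probe sets above the range on both arrays averaged -0.54, short of the threshold. The spread over probe sets of a gene is the disagreement of its probe sets within the pair of arrays. It is not the error of the gene difference, since probe sets can read different splice forms and some share probes. Pooled over 11822 genes with more than 1 probe set, the SD over probe sets was 0.30.

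MCL1, a short-lived survival protein, was the survival member with the most probe sets, 3 of 6, above the nonspecific range on both arrays. Its probe sets gave 10.07, 9.05, 8.003, 6.36, 6.28 and 4.42 on the anti-miR array and 9.89, 8.86, 8.05, 6.48, 5.99 and 4.17 on the control array. The differences ranged from -0.12 to 0.29, with 4 probe sets higher and 2 lower, and averaged 0.13 ± 0.17 (SD over 6 probe sets). The 3 probe sets above the nonspecific range on both arrays differed by 0.19, 0.20 and -0.04. The MCL1 difference was thus smaller than its spread over probe sets and close to the median gene.

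BCL2L1 encodes BCL-XL, and an alternative splice form with the opposite activity. Its 3 probe sets gave 7.32, 4.97 and 4.93 on the anti-miR array and 7.58, 4.81 and 5.41 on the control array. They did not share a direction, at -0.26, 0.16 and -0.48, and averaged -0.19 ± 0.32 (SD over 3 probe sets). Only the probe set at -0.26 lay above the nonspecific range on both arrays, and those at 0.16 and -0.48 lay within it on both. BCL2L1 was the only member besides BID with a mean below zero, and the mean was smaller than its spread. Which splice form each probe set reads was not analysed here.

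BCL2, the founding member and an inhibitor of cytochrome c release, was dim throughout. Its 6 probe sets lay between 2.57 and 5.00 on the anti-miR array and between 2.46 and 4.77 on the control array. They differed by -0.10 to 0.24 and averaged 0.10 ± 0.13 (SD over 6 probe sets). A single BCL2 probe set reached the median of either array, 4.64 and 4.63. No level of BCL2 can be stated from these values.

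The effectors BAK1 and BAX were higher on the anti-miR array in all 7 probe sets, none of them past 1.5-fold. BAK1, which sits in the outer mitochondrial membrane, gave 7.35, 7.16, 6.70, 6.62 and 5.17 on the anti-miR array against 6.90, 6.79, 6.45, 6.43 and 4.88 on the control array. Its mean difference was 0.31 ± 0.10 (SD over 5 probe sets), or 1.24-fold. BAX, which moves from the cytosol to mitochondria when activated, gave 7.80 and 6.60 against 7.56 and 6.29. Its mean difference was 0.27 ± 0.05 (SD over 2 probe sets), or 1.21-fold. Both means exceeded the spread over their probe sets. They stood at percentiles 81.5 and 77.4 of all genes, so about 1 in 5 genes had a larger positive difference.

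Shifts of the size seen for the effectors were common on these arrays. The upper quartile of all gene differences was 0.25. Poly-A controls are bacterial RNAs added to a sample ahead of labelling, and their anti-miR values exceeded the control values by 0.32 ± 0.19 (SD over 12 probe sets). Their part in the differences of BAK1, BAX and BBC3 was not tested.

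PMAIP1 encodes NOXA, a BH3-only protein that binds MCL1 and is induced by p53 and by stress pathways. Its probe sets gave 9.36 and 8.52 on the anti-miR array and 8.81 and 7.93 on the control array, all above the nonspecific range. The differences were 0.55 and 0.59, so 1 of the 2 probe sets reached 1.5-fold by a narrow margin (0.585 on the log2 scale). The gene mean was 0.57 ± 0.02 (SD over 2 probe sets), which ranked 877 of 18239 genes by increase. With the shift of the median gene removed the difference was 0.46, and 0.48 with every probe set centred on the median of all probe sets. The agreement of the probe sets describes the reading of these samples and holds nothing on variation between cultures.

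BBC3 encodes PUMA, a BH3-only protein and p53 target that can bind every survival member. Its probe sets gave 6.50 and 3.80 on the anti-miR array against 6.24 and 3.59 on the control array. The mean difference was 0.23 ± 0.04 (SD over 2 probe sets), or 1.17-fold.

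BID links death receptors to mitochondria, since caspase-8 cuts it to an active fragment. Its 4 probe sets gave 7.38, 7.19, 7.13 and 4.28 on the anti-miR array and 7.88, 7.78, 7.52 and 6.16 on the control array. All 4 were lower on the anti-miR array, by -0.50, -0.59, -0.39 and -1.88. The mean was -0.84 ± 0.70 (SD over 4 probe sets), or 1.79-fold lower. The dimmest probe set, 3.69-fold lower, carried this call. Without it the other 3 averaged -0.49 ± 0.10 (SD), or 1.41-fold lower, short of the threshold. The median of the 4 probe sets was -0.54, also short of it. The direction held in every probe set, while the size of the BID difference depends on 1 of them, whose values lay within the nonspecific range on both arrays.

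BCL2L11 encodes BIM, a BH3-only protein that binds all survival members and is made in several splice forms. Its 14 probe sets lay between 2.69 and 6.28 on the anti-miR array and between 2.42 and 6.09 on the control array. Of these 11 were higher and 3 lower, with differences from -0.55 to 0.58 and a mean of 0.16 ± 0.27 (SD over 14 probe sets). The 4 probe sets that reached the median of an array averaged 0.22 ± 0.10 (SD). The largest differences in either direction, -0.55 and 0.58, belonged to probe sets below the array medians.

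BAD, a BH3-only protein held inactive by phosphorylation and 14-3-3 binding, was the member with the smallest difference. Its probe sets gave 7.90 and 7.15 on the anti-miR array and 7.95 and 7.05 on the control array. They differed by -0.05 and 0.10, with a mean of 0.02 ± 0.10 (SD over 2 probe sets). With centring on the median the mean was -0.06, so BAD has no settled sign.

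**Figure D2:**
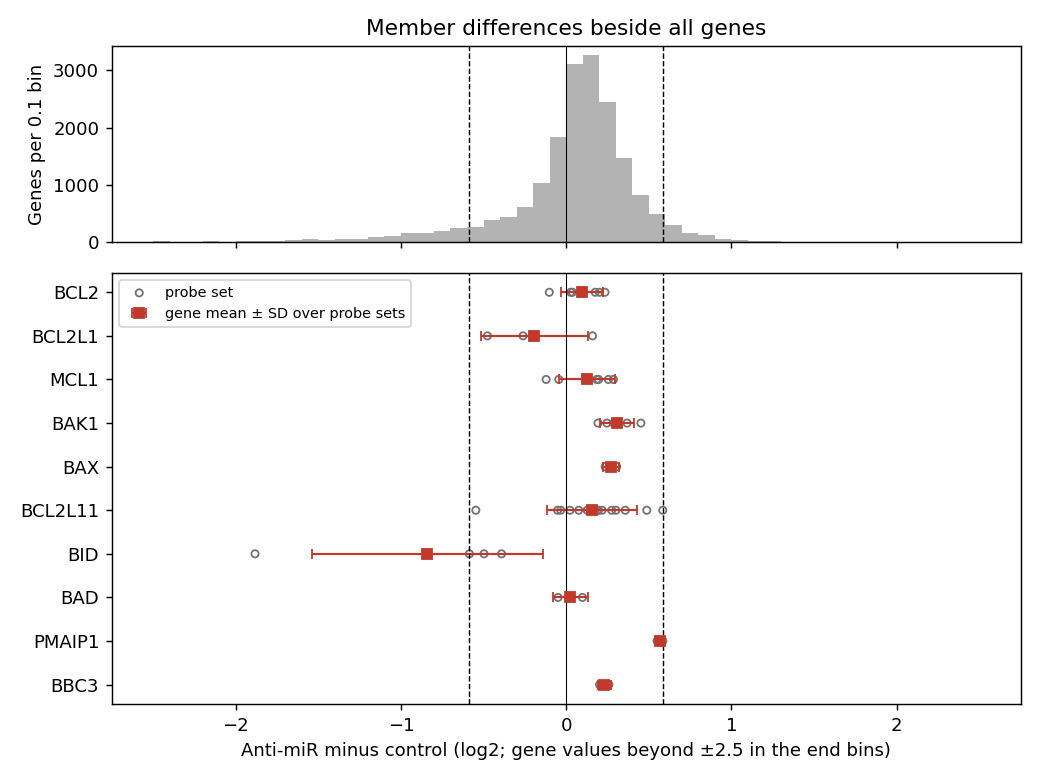
Top, the number of genes per bin of anti-miR minus control difference (log2) over all 18239 genes; bottom, each member's probe sets (open circles) and gene mean ± SD over probe sets (red squares), with 1.5-fold as dashed lines. The BID mean of -0.84 is the only one past a dashed line, and PMAIP1 at 0.57 lies just inside the other.

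By kind, the 3 survival members had a median difference of 0.10 and the 2 effectors one of 0.29. The 5 BH3-only members had a median of 0.16 and the widest range, from -0.84 for BID to 0.57 for PMAIP1. These groups hold few genes, and no test sets one against the other.

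Restricting the gene values to probe sets that reached the median of at least 1 array left all 10 members measured. The counts were 0 higher and 1 lower, against 8.23% and 14.2% over 11272 genes. The BID probe set that carries the lower call passed this filter through the control array alone, so the count adds nothing to the one above. This filter left 1 probe set of BCL2, at 0.24, and 1 of BBC3, at 0.26.

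Differences on these arrays varied with the genomic span of the gene. In the shortest quartile of genes 0.924% were at least 1.5-fold lower, and in the longest quartile 20.2% were. MCL1, BAK1, BAX and PMAIP1 belong to the shortest quartile, whose median difference was 0.17. BID, BCL2L1 and BCL2L11 belong to the third quartile, with a median of 0.09. Within its own quartile PMAIP1 (4.31 kb) lay at percentile 93.2, BID (40.5 kb) at 3.17, BAK1 at 74.5 and BAX at 68.8. BCL2, at 197 kb the longest member, lay at percentile 73.5 of the longest quartile. The part of gene length in the differences of the members was not tested.

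**Figure D3:**
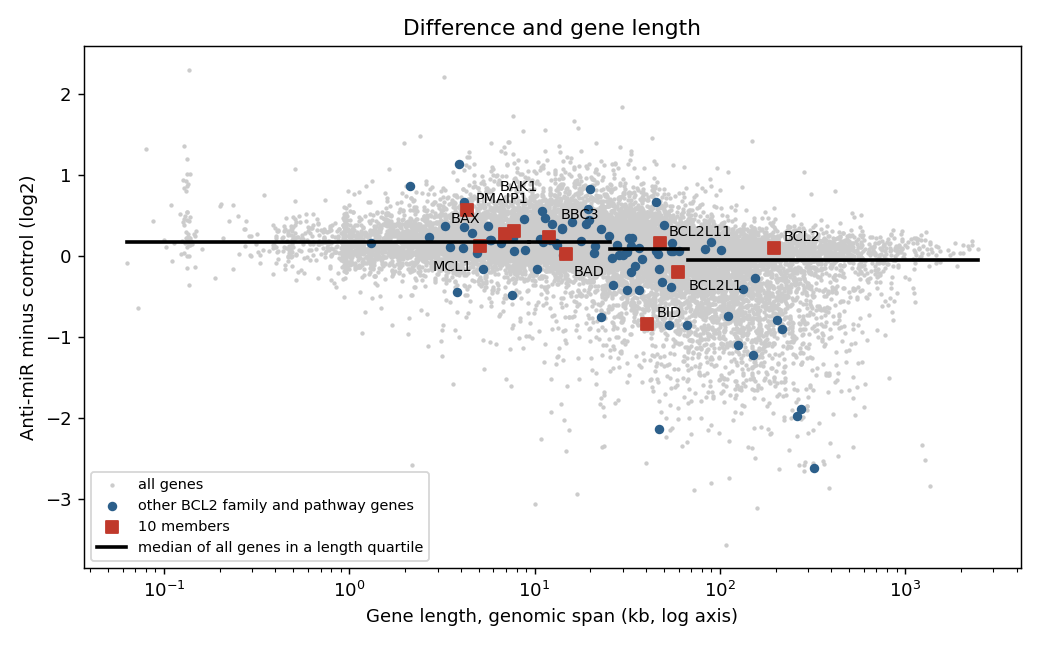
Anti-miR minus control difference (log2) against genomic span (kb, log axis) for all genes (grey), the other BCL2 family and pathway genes (blue) and the 10 members (red squares), with black lines at the median of each length quartile. The quartile medians are 0.17, 0.18, 0.09 and -0.05, and BID lies well below that of its quartile.

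The rest of the family also gave counts near the background. Of 18 further genes with BCL2 homology or that bind family members, 1 was at least 1.5-fold higher and 0 were lower. Over all genes the shares were 4.4% and 7.37%. The median of the 18 was 0.19. Of these genes 7 had a probe set above the nonspecific range on both arrays, and BOK and BCL2A1 were not among them. The higher gene was BNIP1, an endoplasmic reticulum SNARE with a BH3-like stretch. Its 2 probe sets averaged 6.90 with the anti-miR against 6.07 in the control, a difference of 0.83 (1.78-fold). Both probe sets lay within the nonspecific range, so the fold is not an exact size. Short of the threshold, the BH3-only gene BIK differed by 0.39 ± 0.04 (SD over 3 probe sets) and BOK, an effector-like member, by 0.34 ± 0.15 (SD over 3 probe sets). BECN1, the autophagy protein bound by BCL2, differed by 0.34 ± 0.06 (SD over 6 probe sets), and BCL2L12 by 0.45 (1 probe set). Of the further survival genes BCL2L2 differed by 0.04 and BCL2A1 by -0.17, and the mitophagy receptors BNIP3 and BNIP3L by 0.01 and 0.02. BCLAF1, a nuclear protein named for binding BCL2, had all 9 probe sets lower, with a mean of -0.20.

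Upstream and downstream genes were read in 7 lists of the pathway. Of 69 genes with a probe set, 4 were at least 1.5-fold higher and 12 lower, against 4.4% and 7.37% of all genes, and their median was 0.08. Of the 12 lower genes 8 were in the longest quartile of genes, which held 12 of the 69.

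The genes for MCL1 turnover had the lowest median of the 7 lists, -0.60, with 4 of 8 lower and 0 higher. GSK3B, a kinase that marks MCL1 for breakdown, was 3.70-fold lower. Its probe sets gave 6.32 and 5.99 on the anti-miR array and 8.39 and 7.69 on the control array, of which the anti-miR values lay within the nonspecific range. USP9X, which removes ubiquitin from MCL1, was 2.33-fold lower, with a difference of -1.22 ± 0.62 (SD over 5 probe sets) and its brightest probe set at 8.75 against 10.02. FBXW7 and BTRC, substrate receptors of ubiquitin ligases, were 1.87-fold and 1.72-fold lower, with all probe sets of both within the nonspecific range. Without probe sets of the _x_at and _s_at types, which can share probes with other transcripts, the BTRC difference was -0.54 and no longer past 1.5-fold. Both GSK3B probe sets are of the _s_at type, so GSK3B has no value without them. The list thus joins a gene that stabilises MCL1, USP9X, with genes that act in its breakdown, and MCL1 RNA differed by 0.13. GSK3A, the paralog of GSK3B, differed by 0.39 and HUWE1, another ligase, by -0.27 ± 0.48 (SD over 3 probe sets). The 1 HUWE1 probe set that reached the median of an array differed by -0.78. With that filter 5 of 7 genes of the list were lower, against 14.2% of the 11272 genes filtered the same way. BTRC probe sets at 4.56, 4.32 and 4.09 and an FBXW7 one at 4.61 on the anti-miR array passed through the control array alone. The filter itself thus favours lower values for these genes. The BTRC probe set that reached the median of both arrays differed by -0.29. The list is made of long genes, with a median of 153 kb against 25.7 kb for all genes. The part of gene length in these differences was not tested.

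Among transcription factors of BH3-only genes 2 of 9 were higher and 2 lower, with a median of 0.09. DDIT3, the stress factor CHOP, was 2.21-fold higher, at 6.07 and 5.67 on the anti-miR array and 4.87 and 4.59 on the control array. Its 2 probe sets are of the _s_at type, which can share probes with other transcripts. ATF4, the factor of the integrated stress response that acts upstream of DDIT3, was 1.83-fold higher (11.26 against 10.39, 1 probe set of a type that can share probes with other transcripts). FOXO3, a forkhead factor that drives BCL2L11 and BBC3 in growth factor loss, was 2.14-fold lower, with a difference of -1.10 ± 0.23 (SD over 3 probe sets). All 3 FOXO3 probe sets are of the _x_at type, which can also share probes with other transcripts. FOXO1 averaged 1.67-fold lower, but its probe sets ranged from -1.85 to 0.02, and its 1 plain _at probe set was the one at 0.02. The median of its probe sets was -0.56, short of the threshold. The values of DDIT3 and FOXO1 lay within the nonspecific range on both arrays, and those of FOXO3 did so on the anti-miR array. E2F1 differed by 0.55 (1 probe set, within the nonspecific range on both arrays). MYC differed by -0.49 (1 probe set) and EGR1 by -0.44 ± 0.17 (SD over 6 probe sets).

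The promoters of PMAIP1 and BCL2L11 are shown because a motif bound by these factor families lies in them, PMAIP1 being a known target of ATF4 and BCL2L11 of FOXO3. Each run is the 250 bases before the gene's start in RefSeq (GRCh38.p14, plus strand), with the motif in capitals. Promoters were searched on both strands, and 9 of 10 members matched the table, with 15 promoters among them. The core of the cAMP response element, TGACG, lies in PMAIP1 on the opposite strand, 55 to 51 bases before the start. The forkhead motif GTAAACA lies in BCL2L11 223 to 217 bases before the start.
PMAIP1, chr18:59899746-59899995: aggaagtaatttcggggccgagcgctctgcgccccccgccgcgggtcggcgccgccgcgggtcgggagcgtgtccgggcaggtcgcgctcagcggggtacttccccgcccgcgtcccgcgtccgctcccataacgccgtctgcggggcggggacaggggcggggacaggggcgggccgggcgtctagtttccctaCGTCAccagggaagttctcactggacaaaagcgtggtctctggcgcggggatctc
BCL2L11, chr2:111120664-111120913: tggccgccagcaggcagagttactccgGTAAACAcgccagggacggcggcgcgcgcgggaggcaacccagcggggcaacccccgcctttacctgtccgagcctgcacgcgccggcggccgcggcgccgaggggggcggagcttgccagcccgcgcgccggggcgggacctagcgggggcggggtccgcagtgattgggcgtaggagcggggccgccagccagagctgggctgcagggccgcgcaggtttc
TGACG was found in 21.2% of 35116 promoters and in 6 of the 15 member promoters, which belong to BCL2, BCL2L1, BAD, BAX and PMAIP1. GTAAACA was found in 2.98% of all promoters and in the 1 of BCL2L11. The E-box CACGTG was found in 6.34% and in 4 member promoters, of BID, BAX and BBC3. The full element TGACGTCA, which contains TGACG, was found in 1.65% and in 0 member promoters. A match is a run of letters and not a shown binding site. The 5 members with TGACG, BCL2, BCL2L1, BAD, BAX and PMAIP1, differed by 0.10, -0.19, 0.02, 0.27 and 0.57 in turn. BCL2L11 differed by 0.16, with no probe set above the nonspecific range. The part of ATF4 or FOXO3 in these differences was not tested.

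**Figure D4:**
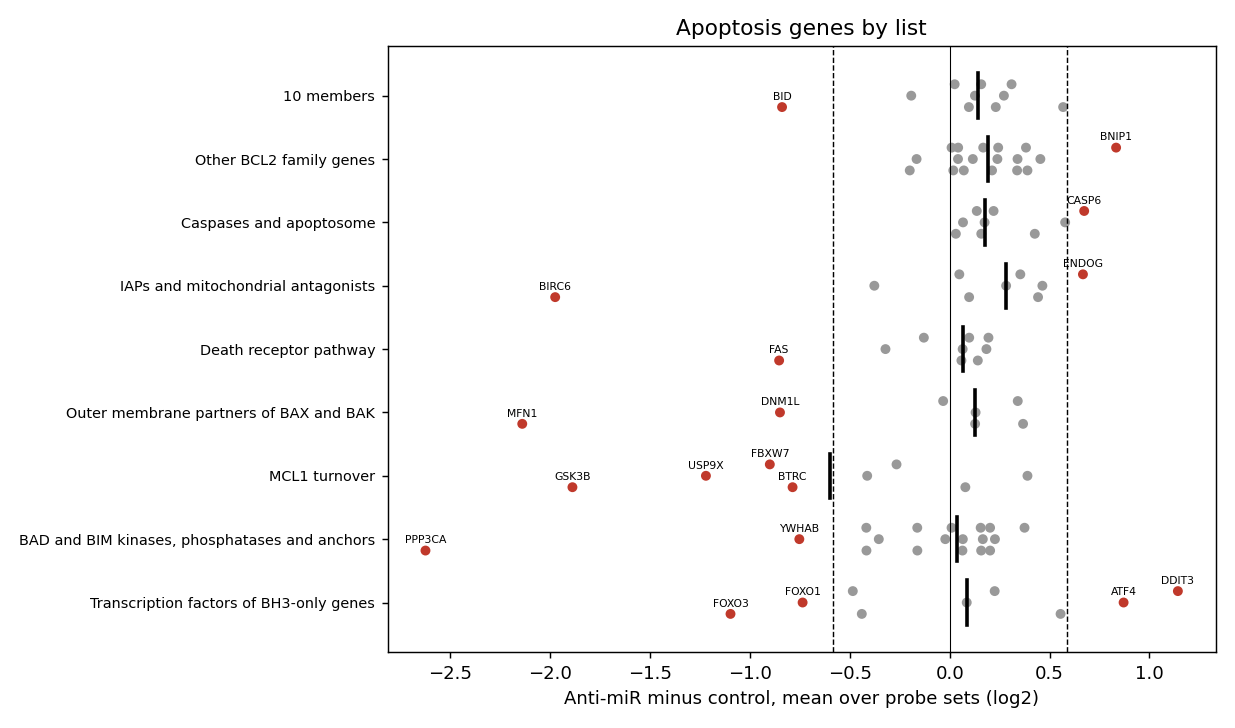
Anti-miR minus control difference (log2, mean over probe sets) of each gene in the 10 members, the further BCL2 family genes and the 7 pathway lists, with genes past 1.5-fold (dashed lines) in red and named, and list medians as black bars. Only the MCL1 turnover list has its median left of zero, at -0.60.

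Downstream of the mitochondria, 1 of 9 genes of the caspase and apoptosome list was higher and 0 lower, with a median of 0.17. CASP6, an executioner caspase, was 1.59-fold higher (7.07 against 6.40, 1 probe set within the nonspecific range), but 0.56 and short of the threshold with a lowess trend removed. That probe set is of the _x_at type, which can share probes with other transcripts. CASP2 differed by 0.58 ± 0.29 (SD over 3 probe sets), just short of the threshold. CASP9, the initiator caspase of the apoptosome, differed by 0.22 ± 0.10 (SD over 2 probe sets), and APAF1, its scaffold, by 0.17 ± 0.15 (SD over 4 probe sets). CYCS, cytochrome c, differed by 0.16 ± 0.25 (SD over 3 probe sets). Its 2 probe sets that reached the median of an array averaged 0.30 ± 0.05 (SD). Of the 9 genes, 2 had a probe set above the nonspecific range on both arrays.

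Of the inhibitors of apoptosis and their mitochondrial antagonists 1 of 9 was higher and 1 lower, with a median of 0.28. BIRC6, a giant ubiquitin ligase that blocks caspases, was 3.93-fold lower, at 5.33 and 4.75 on the anti-miR array against 7.35 and 6.68 on the control array. Its anti-miR values and the control value of 6.68 lay within the nonspecific range, so this fold is not an exact size. At 262 kb BIRC6 is among the long genes. ENDOG, a mitochondrial nuclease, was 1.59-fold higher (7.20 against 6.53, 1 probe set). Its control value lay within the nonspecific range, so the fold is not an exact size, and it fell short of 1.5-fold once the median shift (0.58) or a lowess trend (0.55) was removed. XIAP, the direct caspase inhibitor, differed by -0.38 ± 0.27 (SD over 5 probe sets), BIRC5, which encodes survivin, by 0.46 ± 0.30 (SD over 12 probe sets), and DIABLO, an antagonist released from mitochondria, by 0.44 (1 probe set).

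In the death receptor pathway, which reaches the family through BID, 1 of 9 genes was lower and 0 higher, with a median of 0.06. FAS was 1.81-fold lower, at 6.22 and 5.80 on the anti-miR array and 7.04 and 6.68 on the control array. The anti-miR values and the control value of 6.68 lay within the nonspecific range. The TRAIL receptors TNFRSF10B and TNFRSF10A differed by -0.32 and -0.13. CASP8, which cuts BID, differed by 0.07 ± 0.10 (SD over 8 probe sets).

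Of 7 genes that act with BAX and BAK1 at the outer membrane 2 were lower and 0 higher, with a median of 0.13. MFN1, a mitochondrial fusion GTPase, was 4.41-fold lower, at 5.20, 4.61 and 4.59 on the anti-miR array and 7.08, 7.17 and 6.56 on the control array. The anti-miR values and the control value of 6.56 lay within the nonspecific range. DNM1L, the fission GTPase DRP1, was 1.80-fold lower with all 4 probe sets between -0.96 and -0.75. MFN2, the paralog of MFN1, differed by 0.13, and VDAC2, a channel that holds BAK1, by 0.13. So both a fusion and a fission gene were lower, while FIS1 and VDAC3 differed by 0.37 and 0.34 in the other direction.

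Of 18 kinases, phosphatases and anchors of BAD and BIM 2 were lower and 0 higher, with a median of 0.04. With probe sets that reached the median of an array 3 of 17 were lower, against 14.2% of all genes filtered so. The added gene was AKT1, at -0.59 ± 0.14 (SD over 2 probe sets), against -0.35 ± 0.43 (SD) over all 3. No AKT1 probe set lay above the nonspecific range on both arrays. PPP3CA, a catalytic subunit of calcineurin, the phosphatase that activates BAD, was 6.16-fold lower. Its probe sets spanned -3.75 to -1.27, with anti-miR values inside the nonspecific range. The PPP3CA probe set at -1.27 lay inside it on the control array too, at 4.98. YWHAB, a 14-3-3 protein that anchors phosphorylated BAD, was 1.69-fold lower, with a difference of -0.75 ± 0.40 (SD over 5 probe sets). All 5 probe sets were lower and above the nonspecific range on both arrays, but the one of highest level differed by -0.31, short of the threshold. The dynein light chain DYNLL1, which tethers BIM, differed by 0.01.

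The labelled cell type was checked against markers, of which the epithelial ones are not all particular to squamous cells. Of 9 epithelial markers with a probe set, 6 had one above the nonspecific range on both arrays: KRT5, SFN, CDH1, DSP, ITGB4 and EPCAM. The others, KRT14 (3.87 and 3.63), DSG3 (5.52 and 5.40) and PKP1 (4.31 and 3.88), had no probe set above it on both arrays. Of the leukocyte, fibroblast, endothelial and skeletal muscle markers, 4, 5, 4 and 4 genes in turn, 0 had such a probe set. Of all these markers 0 differed by 1.5-fold.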

How the data were processed

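GFP-SAS cells were measured on Affymetrix 3' arrays with 1 array per group. The deposited values are log2 expression per probe set, made by the authors with RMA, per the submitters' processing notes; its software and version, and which arrays it normalized jointly, are not stated there. RMA aligns array distributions, so differences are relative to the bulk of probe sets.

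Symbols came from the platform annotation: 45259 of 49386 probe sets had 1 symbol, 1327 several and 2800 none. After 93 controls were left out, 45172 of 45253 matched RefSeq (GRCh38.p14) by Entrez ID. All probe sets of a gene were averaged, with no filter, and its difference anti-miR minus control. A gene was counted at 1.5-fold or more. With 1 array per group no test, array left out or interval was possible, and precision is limited by the number of arrays.

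Members and lists were chosen with earlier results of these data known. Named were all members, any further family gene, and up to 4 genes per pathway list past 1.5-fold with the largest differences, plus CASP9, APAF1 and FAS; the other genes given with values (such as BIK, HUWE1, MYC, XIAP or CASP8) were chosen after their values were seen. Listed genes without a single-symbol probe set are not analysed here. The alternatives were 3 filters, other gene values, centring, plain _at probe sets and 2-fold, and, added after seeing the data, BID without its most different probe set and all genes without _x_at and _s_at probe sets. The script was tested on simulated data. Python 3.11.15, numpy 2.4.6, pandas 2.3.3, statsmodels 0.14.6 and matplotlib 3.10.9 were used.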

Additional observations from a re-analysis of the deposited data

Results flagged for a closer look

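Signals higher on the anti-miR than on the control array also appeared in control probe sets, which no comparison of genes uses. The poly-A spike controls had a mean difference of 0.32 (log2) over 12 probe sets. For nonspecific controls with a GC class of at least 15 the median difference was 0.23 (11 probe sets), and for the remaining 12 it was -0.0038. The differences of BAK1 (0.31), BAX (0.27) and BBC3 (0.23) are of this size, that of PMAIP1 (0.57) is larger, and BID (-0.84) lies on the other side. The part of these shifts in the member differences was not tested.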

How the results depend on the processing

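No array could be left out, since each group is 1 sample. No paired analysis was possible because the comparison has a single array on either side. The count of 1 lower member (BID) became 0 with the 75th percentile filter, the probe set of highest level, the median of probe sets, plain _at probe sets (4 members), a 2-fold threshold and, added after seeing the data, BID without its most different probe set. The count of 0 higher members became 1 (PMAIP1) with plain _at probe sets. Against 802 genes higher and 1345 lower, median centring gave 529 higher and a lowess trend 453, which lowered the higher share of called genes from 37.4% to 25.1% and 21.5%. Plain _at probe sets gave 315 and 494 among fewer genes, and 2-fold gave 106 and 555. The other family count of 1 became 0 with plain _at probe sets and at 2-fold, and the pathway count of 16 became 4 and 7, and 12 without _x_at and _s_at probe sets (59 genes, added after seeing the data). FOXO1 reversed to 0.018 with plain _at probe sets. Over 27 single genes and 214 alternatives, 183 values moved by no more than the spread over probe sets and 30 by more. For genes with 1 probe set this spread was the pooled SD of 0.30. The count is no measure of stability, since a filter that keeps the same probe sets cannot move a value. BID, with a spread of 0.70, fell among the 183 in all 9 of its alternatives, though its call was lost in some. BID stayed between -0.95 and -0.49 and PMAIP1 between 0.46 and 0.59, while BCL2, BCL2L1, BCL2L11 and BAD changed sign under at least 1 alternative.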
